A study of Homo sapiens with 2 samples.

Results

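The genes of the translation initiation factors (eIFs) were followed in A549, a long-established human line from a lung adenocarcinoma. The set held every gene whose symbol begins with EIF, leaving out hyphenated symbols (antisense and readthrough transcripts) and pseudogenes. The EIF4EBP genes were kept, since their final letter P stands for protein and not for pseudogene. This gave 55 genes of 23024 listed in the series, of which 53 had a value in both libraries and 51 a mean of at least 1 FPKM (fragments per kilobase of transcript, scaled to the library total). The other 4 were EIF1AY and EIF2S3L, listed in the vector file only, EIF4EBP3 (1.37 FPKM with the vector and 0.217 with ATOH8) and EIF5AL1 (0.101 and 0.0664 FPKM). The control culture carried a retroviral vector and the other a retrovirus with ATOH8, a basic helix-loop-helix transcription factor, both by stable transduction. Both cultures grew in DMEM with serum and antibiotics. Paired values are given with the vector library's before the ATOH8 library's throughout, and a value in brackets after them is the relative log2 fold defined below. The labels do not say whether either culture was a clone or a pool, or which promoter drove the transgene. With 1 library per group, every difference compares these 2 libraries and has no replicate check, no p-value and no error. The read depth is unknown, so no counting interval can be given.

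An initiation factor helps the ribosome find the start of a coding sequence. The eIF4 factors bind the 5′ cap and unwind the leader, eIF3 scaffolds the small ribosomal subunit, and eIF2 brings the initiator tRNA as a complex with GTP. eIF1 and eIF1A hold the scanning complex open, eIF5 triggers GTP hydrolysis at the start codon, eIF2B recharges eIF2 and eIF5B joins the large subunit. Many mRNAs of the translation machinery begin with a C followed by an uninterrupted run of pyrimidines, the terminal oligopyrimidine (TOP) tract through which mTOR and LARP1 control their translation and stability.

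The ATOH8 gene itself was at 0.786 and 182 FPKM, higher in the library labelled ATOH8. The epithelial keratin genes KRT8, KRT18 and KRT7 were listed between 965 and 2486 FPKM in both libraries. EPCAM was low (1.70 and 2.23 FPKM), CDH1, another epithelial marker, differed (15.4 and 54.1 FPKM), and of 3 surfactant protein genes none exceeded 0.0355 FPKM. The blood cell markers that were listed summed to 1.83 and 10.5 FPKM, mostly CD14 (1.12 and 9.14 FPKM), while CD3E was listed in neither file and PTPRC at 0.0111 FPKM in the ATOH8 file only; their part in the results was not tested. Across 12351 genes with a mean of at least 1 FPKM, the log2 fold is log2(FPKM + 1) in the ATOH8 library minus that in the vector library. Genes with a mean of at least 5 FPKM had a median log2 fold of -0.36, and each relative log2 fold below is the log2 fold less this median, so 0 marks the median gene. Transcripts encoded by mitochondrial DNA and listed in both files took 14.0% and 24.2% of the FPKM total. A scaling that leaves them out is given with the closing observations, and their part in the results was not tested beyond that. In bulk RNA, fewer cells of a kind and less RNA per cell cannot be told apart.

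The listed transcription starts of 15 members are shown to let a reader see the 2 kinds of start described further on: the 9 members with a pyrimidine tract, whatever their fold, and 6 of the lowest members. Each line gives 10 bases before and 20 bases from the start on the gene's strand (RefSeq, GRCh38.p14). Capitals mark the pyrimidine tract where the start is a C followed by at least 4 pyrimidines, and otherwise the start base alone. The lines from EIF4A2 to EIF3M carry such a tract. Those from EIF5 to EIF3J are the members at least 2-fold below the median gene that the promoter table lists, and they do not. The display does not sort all members by fold: EIF1 (0.84), EIF4E3 (0.81), EIF4EBP2 (0.78) and EIF1B (0.56) also lack a tract at their listed starts and lay above the median gene.
EIF4A2 (chr3:186783567-186783596, plus strand): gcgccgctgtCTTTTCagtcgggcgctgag
EIF3F (chr11:7987327-7987356, plus strand): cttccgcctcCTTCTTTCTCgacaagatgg
EIF4B (chr12:53006446-53006475, plus strand): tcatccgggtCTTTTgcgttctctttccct
EIF3D (chr22:36529147-36529176, minus strand): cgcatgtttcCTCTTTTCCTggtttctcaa
EIF2D (chr1:206612446-206612475, minus strand): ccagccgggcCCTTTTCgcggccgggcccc
EIF2S3 (chrX:24054946-24054975, plus strand): gatttccttcCTCTTTTggcaacatggcgg
EIF3K (chr19:38619178-38619207, plus strand): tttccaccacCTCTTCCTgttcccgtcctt
EIF2A (chr3:150546777-150546806, plus strand): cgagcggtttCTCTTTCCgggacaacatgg
EIF3M (chr11:32583821-32583850, plus strand): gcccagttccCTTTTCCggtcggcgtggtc
EIF5 (chr14:103334227-103334256, plus strand): ggcgttgttcAgtcagagcgagaacattcc
EIF4E (chr4:98929114-98929143, minus strand): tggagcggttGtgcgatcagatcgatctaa
EIF1AX (chrX:20141819-20141848, minus strand): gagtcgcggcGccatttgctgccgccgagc
EIF2S1 (chr14:67360318-67360347, plus strand): gaggttccgcAtgcgcggtggagtgagcga
EIF5B (chr2:99337379-99337408, plus strand): ctgagaactcAcaccatatgtgtcctgttc
EIF3J (chr15:44537137-44537166, plus strand): ccgccgtgctAactcctcgctagctctccc

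Of the 51 members with a mean of at least 1 FPKM, 7 were at least 2-fold below the median gene in the ATOH8 library and 1, EIF4A2, was at least 2-fold above it. The same rule called 9.47% of all genes tested lower and 12.8% higher. The median absolute relative log2 fold was 0.53 for the members and 0.54 for all genes tested. The members' median relative log2 fold was -0.30, against 0.06 for all genes tested, and 33 of the 51 lay below the median gene, against 47% of all genes. Without centring, 15 members passed on the lower side and 0 on the higher (background 19% lower and 6.24% higher). The authors' deposited table marked 13 members down and 0 up, against 14.7% and 5.17% of all genes tested. The summed FPKM of the members was 5865 and 4108, or 1.09% and 0.817% of each library's total. The group medians ran from -1.56 for the eIF2 subunits to 0.18 for the eIF4E-binding proteins. The eIF5 group stood at -1.15, the eIF2B group at -0.49, the eIF3 group at -0.38, the eIF4 group at -0.16 and the eIF1 group at 0.05.

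**Figure D1:**
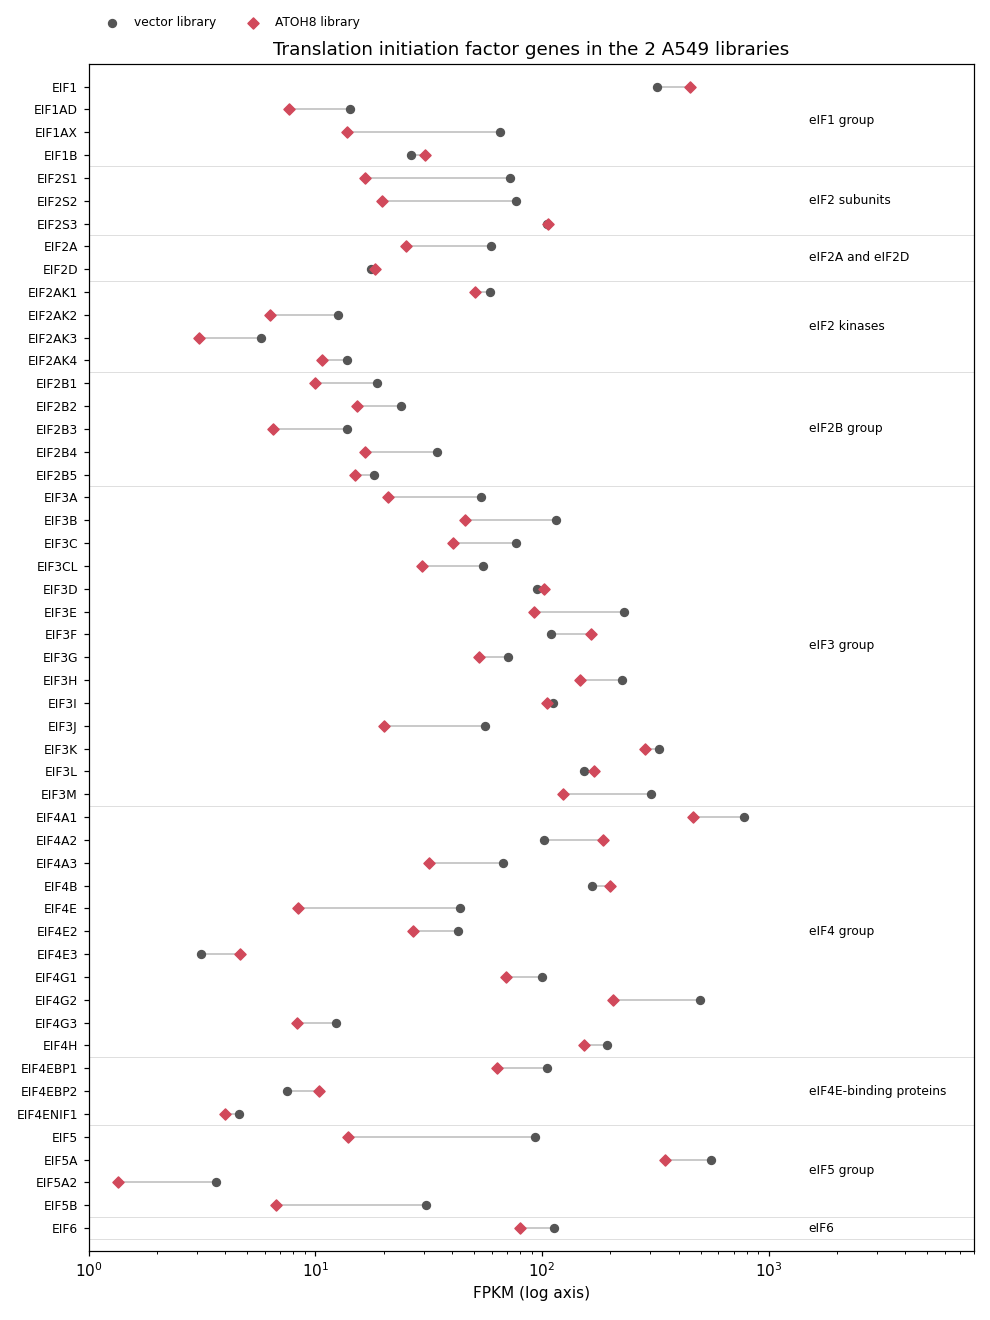
FPKM (log axis) of the 51 members with a mean of at least 1 FPKM in the vector library (grey circles) and the ATOH8 library (red diamonds), ordered by group. EIF5, EIF4E and EIF1AX show the widest gaps, with EIF5 at 93.0 and 13.97 FPKM, whereas EIF2S3, EIF3D and EIF3I have nearly coincident points.

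**Figure D2:**
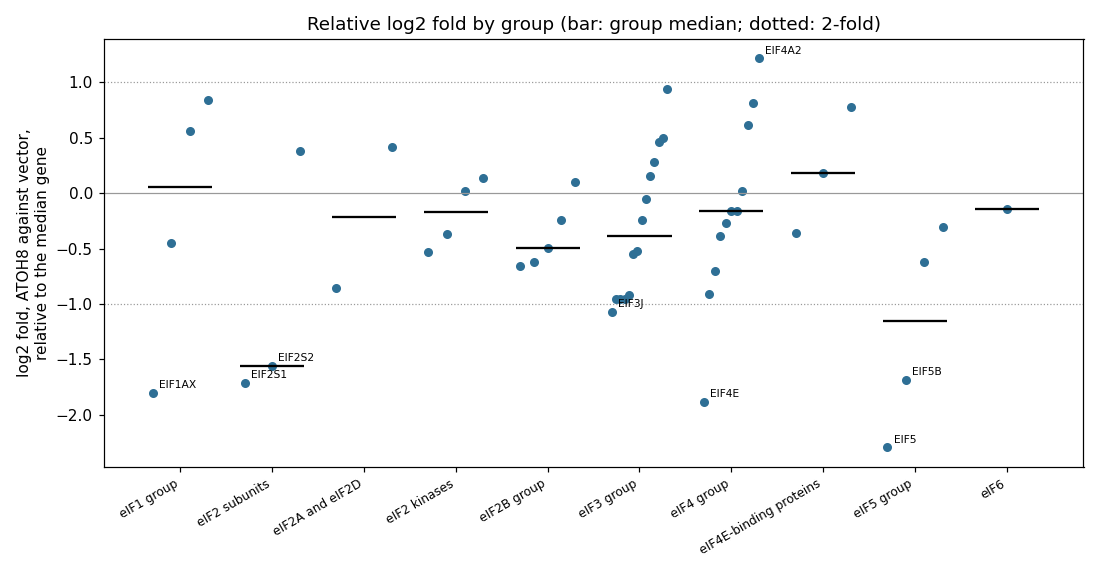
Relative log2 fold (ATOH8 against vector, 0 at the median gene) of each member by group, 1 point per gene, with bars at the group medians and dotted lines at 2-fold. The 7 points under the lower dotted line come from 5 groups, and EIF4A2 (1.22) is the point above the upper one.

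Several of the lowest members act in scanning, start codon recognition and subunit joining. EIF5 (ENSG00000100664, chr14:103333544-103345025, plus strand, GRCh38), whose product is the GTPase-activating protein of eIF2, was at 93.0 and 13.97 FPKM. Its relative log2 fold was -2.29, a 4.90-fold lower level than the median gene would give. It stood above 94.0% of the tested genes in the vector library and above 67.8% in the ATOH8 library. EIF1AX (chrX:20124518-20141844, minus strand), which encodes the scanning factor eIF1A, was at 64.97 and 13.8 FPKM (-1.80). EIF1, whose product works beside eIF1A to reject wrong start codons, lay on the opposite side, at 323 and 450.5 FPKM (0.84). Its close relative EIF1B was at 26.5 and 30.6 FPKM (0.56). The FPKM ratio of EIF1 to EIF5 was therefore 3.47 in the vector library and 32.2 in the ATOH8 library, and that of EIF1 to EIF1AX was 4.97 and 32.7. EIF5B (chr2:99337353-99401326, plus strand), the GTPase of subunit joining, was at 30.8 and 6.73 FPKM (-1.68). The file cannot settle how reads were shared between EIF5B and its overlapping neighbour TXNDC9, which was also lower (28.2 and 6.48 FPKM). EIF1AD, which encodes a protein with an eIF1A-like domain, was at 14.2 and 7.68 FPKM (-0.45). BANF1, whose annotated span overlaps that of EIF1AD, was at 152 and 126 FPKM. Of the 51 tested members, 25 overlap another protein-coding gene on either strand, and how reads were shared is unsettled for them too.

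EIF5A and EIF5A2 share the eIF5 name but encode a hypusine-bearing factor that mainly relieves stalled elongation. EIF5A was at 554 and 350.1 FPKM (-0.30) and EIF5A2 at 3.64 and 1.35 FPKM (-0.62), so the eIF5 group's median of -1.15 came from EIF5 and EIF5B on one side and these 2 on the other. EIF6, which encodes an anti-association factor of the large subunit, was at 113 and 79.9 FPKM (-0.14), near the median gene.

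The genes of the 3 subunits of eIF2 did not differ alike between the libraries. EIF2S1 (alpha subunit, chr14:67359997-67386516, plus strand), the target of the stress kinases, was at 72.4 and 16.5 FPKM (-1.71). EIF2S2 (beta subunit, chr20:34088298-34112332, minus strand) was at 77.0 and 19.6 FPKM (-1.56). EIF2S3 (gamma subunit, which binds GTP and the initiator tRNA) was at 105 and 107 FPKM (0.38), a log2 fold of 0.02 before centring. The related gene EIF2S3L was listed at 0.0508 FPKM, in the vector file only. In the vector library the 3 values lay within 1.45-fold of each other, and in the ATOH8 library the highest was 6.46 times the lowest. EIF2S3 supplied 41.3% of the summed FPKM of the 3 subunit genes in the vector library and 74.7% in the ATOH8 library, a share that no scaling of the libraries can change. The ratio of EIF2S2 to EIF2S1 was 1.06 and 1.19. Parts of RALY (65.0 and 75.2 FPKM) and ATP6V1D (28.0 and 14.6 FPKM) overlap EIF2S2 and EIF2S1, and the strand setting of the counting is not given in the sources used here.

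The genes of the eIF2 kinases, which phosphorylate the alpha subunit under stress, lay between -0.53 and 0.13. The heme-regulated kinase gene EIF2AK1 was at 59.2 and 50.4 FPKM (0.13) and the amino acid sensor EIF2AK4 (GCN2) at 13.8 and 10.7 FPKM (0.02). The RNA-activated kinase gene EIF2AK2 (PKR) was at 12.5 and 6.32 FPKM (-0.53) and the endoplasmic reticulum kinase gene EIF2AK3 (PERK) at 5.74 and 3.08 FPKM (-0.37). None of these 4 passed the 2-fold rule. The 5 genes of eIF2B, the exchange factor of eIF2, lay close together: 4 were below the median gene, between -0.24 for EIF2B2 and -0.66 for EIF2B4, and EIF2B5, the catalytic epsilon subunit, lay at 0.10. Their highest FPKM was 2.50 times the lowest in the vector library and 2.54 times in the ATOH8 library. EIF2A and EIF2D, whose products can deliver tRNA without eIF2, were at 59.8 and 25.2 FPKM (-0.85) and at 17.7 and 18.4 FPKM (0.41). Before centring EIF2D had a log2 fold of 0.06.

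The 14 genes of eIF3 ran from -1.07 to 0.94 with values in between, and 1, EIF3J, was at least 2-fold below the median gene. EIF3J, the loosely bound subunit near the mRNA entry channel, was at 55.99 and 20.2 FPKM (-1.07). EIF3A, the largest subunit, was at 53.8 and 21.0 FPKM (-0.96), EIF3B, a propeller scaffold, at 116 and 45.8 FPKM (-0.96), EIF3E at 231 and 92.0 FPKM (-0.96) and EIF3M at 302 and 124 FPKM (-0.92). These 4 lay just inside 2-fold. At the other end stood EIF3F at 109 and 164 FPKM (0.94), EIF3L at 154 and 169 FPKM (0.50), EIF3D, which can bind the cap of selected mRNAs, at 94.95 and 102 FPKM (0.46) and EIF3I at 111 and 105 FPKM (0.28). EIF3K (0.15), EIF3G (-0.05) and EIF3H (-0.25) were near the median gene. EIF3F and EIF3M, neighbours in the same module of the complex, exchanged order: their FPKM ratio was 0.362 in the vector library and 1.32 in the ATOH8 library. Over the 14 genes the highest value was 6.10 times the lowest in the vector library and 14.1 times in the ATOH8 library. EIF3C (76.9 and 40.5 FPKM, -0.55) and EIF3CL (55.1 and 29.5 FPKM, -0.52) have coding sequences identical at 99.9% of aligned bases, so the division of reads between them is uncertain.

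Within eIF4 the composition of the paralogue families differed between the libraries. EIF4E (ENSG00000151247, chr4:98871684-98930637, minus strand), the cap-binding protein gene, was at 43.35 and 8.36 FPKM (-1.88). EIF4E2, a weaker cap binder that represses translation, was at 42.4 and 27.0 FPKM (-0.27), and EIF4E3 at 3.12 and 4.64 FPKM (0.81). EIF4E made up 48.8% of the summed FPKM of these 3 genes in the vector library and 20.9% in the ATOH8 library, and EIF4E2 47.7% and 67.5%. EIF4EBP1, which encodes the mTOR-controlled inhibitor of eIF4E, was at 105 and 63.6 FPKM (-0.36). The FPKM ratio of EIF4EBP1 to EIF4E was 2.43 in the vector library and 7.60 in the ATOH8 library. EIF4EBP2, a second inhibitor, was at 7.51 and 10.4 FPKM (0.78), and EIF4ENIF1, a carrier of eIF4E into the nucleus, at 4.63 and 3.97 FPKM (0.18).

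EIF4A2 (ENSG00000156976, chr3:186783205-186789900, plus strand) was the member furthest above the median gene. It encodes a DEAD-box helicase very close to EIF4A1, the main helicase of scanning. EIF4A2 was at 102 and 186 FPKM, a relative log2 fold of 1.22 and of 0.86 before centring, which is under 2-fold. EIF4A1 was at 779 and 464 FPKM (-0.39), and EIF4A3, a subunit of the exon junction complex, at 67.1 and 31.7 FPKM (-0.70). The share of EIF4A2 in the 3 genes was 10.8% in the vector library and 27.3% in the ATOH8 library, and the ratio of EIF4A1 to EIF4A2 was 7.62 and 2.49. RFC4, whose annotated span overlaps that of EIF4A2, was lower in the ATOH8 library (36.6 and 7.25 FPKM).

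The coding sequences of EIF4A1 and EIF4A2 are 77.5% identical, and the 90 bases below, the earliest stretch in which 30 codons encode the same amino acids in both, show how reads of the 2 genes differ. Capitals mark the 19 bases that differ, of which 17 are at wobble positions, the last base of a codon.
EIF4A1 (coding bases 742 to 831): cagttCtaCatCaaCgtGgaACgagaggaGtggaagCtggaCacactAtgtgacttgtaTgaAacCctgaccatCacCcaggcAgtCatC
EIF4A2 (coding bases 748 to 837): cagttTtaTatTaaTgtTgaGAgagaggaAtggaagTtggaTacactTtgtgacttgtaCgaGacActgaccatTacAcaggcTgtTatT
G or C fills 22 of the 30 wobble positions of this stretch in EIF4A1 and 13 in EIF4A2.

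**Figure D3:**
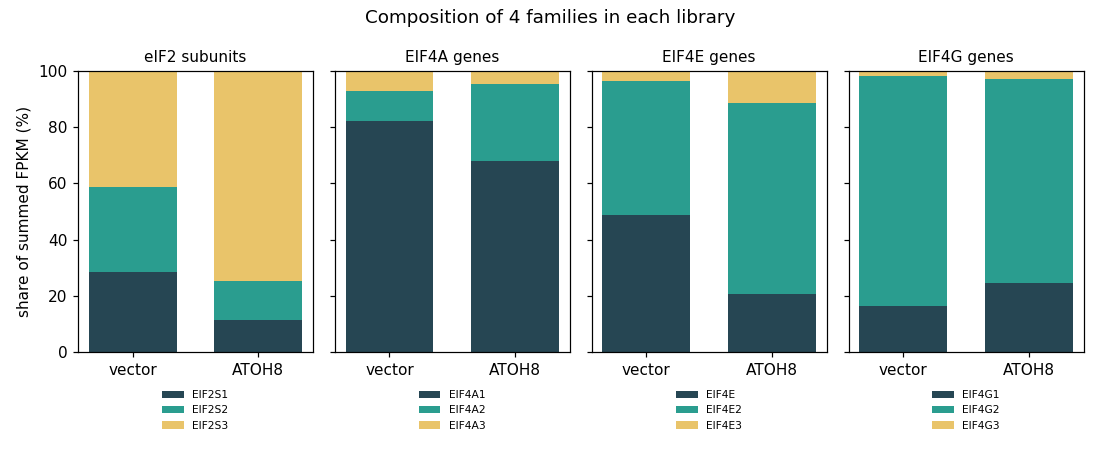
Share (%) of each gene in the summed FPKM of the eIF2 subunits and of the EIF4A, EIF4E and EIF4G families, for the vector and ATOH8 libraries. EIF2S3 takes 41.3% and 74.7%, EIF4A2 10.8% and 27.3%, and EIF4E 48.8% and 20.9%.

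The remaining eIF4 genes encode scaffold and helper proteins. EIF4G1, the scaffold that joins eIF4E to eIF3, was at 100.0 and 69.6 FPKM (-0.16), and EIF4G3 at 12.4 and 8.33 FPKM (-0.16). EIF4G2 (DAP5), a scaffold that lacks the eIF4E site and serves initiation without it, was at 498 and 205 FPKM (-0.91). EIF4B, which encodes a helicase cofactor, was at 167 and 199 FPKM (0.61), and its relative EIF4H at 194 and 154 FPKM (0.02).

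The members' values were also set out by the kind of transcription start. Of the 42 tested members with a listed promoter, 9 had a pyrimidine start as defined above (21.4%), against 7.65% of 9012 tested genes and 5.14% of all 27305 symbols in the table. A gene counted when any of its listed starts matched, on its own strand. Of the 9, 7 lay above the median gene, with a median relative log2 fold of 0.41 and a range from -0.92 to 1.22. EIF4A2, EIF3F, EIF4B, EIF3D, EIF2D, EIF2S3 and EIF3K were the 7, and EIF2A and EIF3M lay below. Of the 33 members without such a start, 9 lay above the median gene, with a median of -0.39 and a range from -2.29 to 0.84. At least 2-fold below it were 6 of these 33 (18.2%) and 0 of the 9 with such a start. Among all tested genes with a listed promoter the shares were 10.4% without and 7.55% with one. The classes overlapped, and this division was made after the values had been seen. Across all tested genes the gap was smaller: the median was 0.16 for 689 genes with a pyrimidine start and 0.01 for 8323 without, and 59.8% and 50.6% of them lay above the median gene. The 47 ribosomal protein genes with such a start had a median of 0.08, and the other 642 genes 0.19. EIF2S2, EIF3A, EIF3E, EIF3H, EIF3L, EIF3G, EIF3CL, EIF2AK1 and EIF4EBP1 had no entry in the table.

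**Figure D4:**
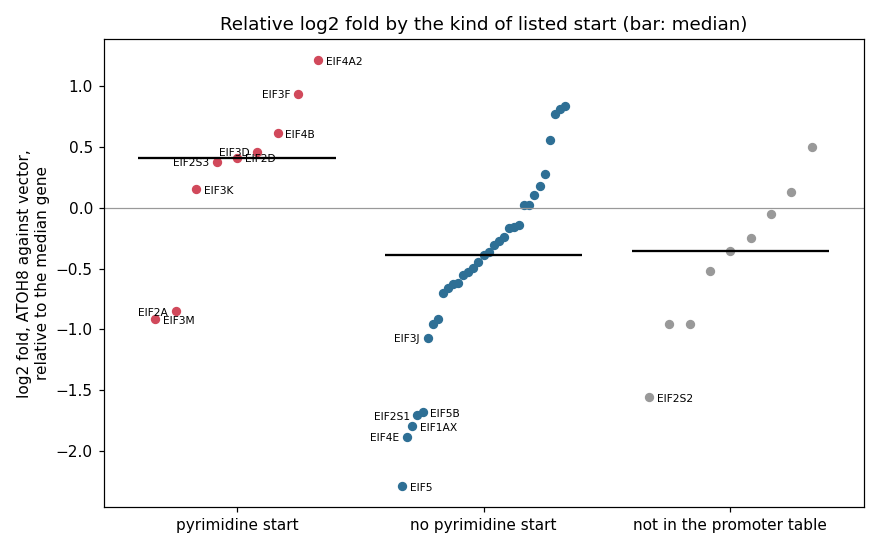
Relative log2 fold (0 at the median gene) of the tested members by the kind of listed start, 1 point per gene, with bars at the medians. The 9 members with a pyrimidine start have a median of 0.41 and the 33 without one a median of -0.39, while 9 members were not in the promoter table.

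Since ATOH8 belongs to a family of proteins that bind E-boxes, the 250 bases before each listed start were searched for the hexamer CANNTG, which reads the same pattern on both strands, and for its form CACGTG. Of 42 members, 23 held CANNTG (54.8%), against 52.6% of 9005 tested genes and 62.2% of all symbols. CACGTG was held by 11 of the 42 (26.2%), against 9.17% of the tested genes and 6.49% of all symbols. Of the 6 members at least 2-fold below the median gene that have an entry, 1, EIF4E, held CANNTG in this window. Its promoter (chr4:98929134-98929383, minus strand, RefSeq, GRCh38.p14) is shown because it was the one among these 6 with the motif, and capitals mark 3 matches to CANNTG, of which 2 are CACGTG.
EIF4E: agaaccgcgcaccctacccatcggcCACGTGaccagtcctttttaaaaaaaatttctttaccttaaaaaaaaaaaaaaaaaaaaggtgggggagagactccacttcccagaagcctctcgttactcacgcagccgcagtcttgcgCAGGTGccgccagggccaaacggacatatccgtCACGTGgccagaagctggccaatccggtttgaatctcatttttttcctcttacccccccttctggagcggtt
The matches begin at bases -225, -105 and -72 counted from the start. A match is a description of these letters and not a bound site, and a part of ATOH8 in the share of CACGTG was not tested. The sources used here do not give the form of CANNTG that ATOH8 binds, and shares of its other forms were not counted.

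Base composition moved with the same values, and its part in them was not tested. The 7 members at least 2-fold lower had transcript GC contents from 35.1% to 45.2%, with a median of 38.97%, against 46.6% for the other 44 members and 48.5% for all genes tested. GC at wobble positions had a median of 39.6% in the 7 and of 56.8% in 42 of the others. Across the 51 members, which share the same 2 libraries, the Spearman correlation of relative log2 fold with transcript GC content was 0.29 and the Pearson correlation 0.24, against 0.55 and 0.51 across 12319 genes. With the GC content of the coding sequence the correlations were 0.45 and 0.45 across the 51 members, against 0.56 and 0.53 across 11235 genes. With GC at wobble positions they were 0.36 and 0.37 across 49 members, against 0.57 and 0.54 across 11107 genes. EIF4A2 lay at the other end with 38.7% GC in its longest transcript and 43.1% in its coding sequence, both inside the ranges of the 7 lower members, and with 43.4% at wobble positions, above their highest of 41.1%. EIF3F has 40.6% GC in its longest transcript, which carries a 3′ UTR of 5843 bases, but 56.5% in its coding sequence, above the lower members' range of 38.9% to 43.7%. After a lowess curve of log2 fold on the GC content of the longest transcript was subtracted, 8 members passed the 2-fold rule on the lower side and 3 on the higher, against 5.94% and 8.34% of all genes. EIF5 (-1.90), EIF2S2 (-1.47), EIF4E (-1.30), EIF2S1 (-1.14), EIF5B (-1.08) and EIF1AX (-1.05) remained at least 2-fold lower. EIF3J did not, at -0.48, while EIF3B came to -1.38 and EIF4EBP1 to -1.01. EIF3E came to -0.32, EIF3M to -0.28 and EIF3G to -0.60. EIF3H (0.26), EIF2AK2 (0.07) and EIF5A2 (0.15) changed sign from below 0 to above it. EIF4H (-0.28), EIF3K (-0.15), EIF2B5 (-0.08), EIF4ENIF1 (-0.08) and EIF2AK4 (-0.03) changed sign the other way. EIF4A2 stood at 1.82, EIF4E3 at 1.48 and EIF3F at 1.41. The longest annotated transcript need not be the one expressed, which limits these corrected values. That of EIF4A2 has 4 exons and 5327 bases, against a coding sequence of 1224 bases, and that of EIF3B has 5 exons. That of EIF4E has 11523 bases, against a coding sequence of 744 bases. That of EIF4E3 has 9949 bases with 37.2% GC, against a coding sequence of 672 bases with 55.1% GC. EIF4E3 was at 0.81 before the correction, under 2-fold. The members with a pyrimidine start had a corrected median of 0.58 and those without -0.43. Across all tested genes the corrected medians were 0.12 with such a start and -0.04 without. The ribosomal protein genes with such a start had a corrected median of -0.02.

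**Figure D5:**
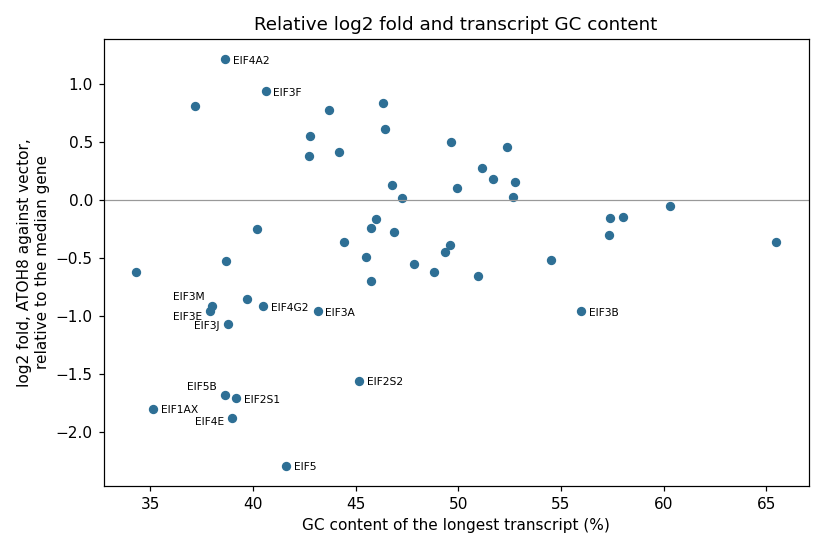
Relative log2 fold against the GC content (%) of the longest annotated transcript for the 51 tested members, 1 point per gene. EIF5, EIF4E, EIF1AX, EIF2S1 and EIF5B lie between 35.1% and 41.6% GC at the bottom, and EIF4A2 at 38.7% GC lies at the top.

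In the authors' deposited table, the 13 members marked down included all 7 of the lowest. EIF5 had a log2 ratio of -2.74 and a q-value of 6.56e-10 in the authors' deposited table, and EIF4E -2.37 and 5.02e-09. The authors' deposited table gave EIF2S1 a q-value of 4.98e-06, EIF5B 0.00205, EIF1AX 0.00545, EIF3J 0.00649 and EIF2S2 0.0129. The other 6 that the authors' deposited table marked down were EIF4G2, EIF3B, EIF3M, EIF2B4, EIF3A and EIF2A, with q-values from 5.43e-05 to 0.0395. These q-values compare 2 libraries, not the conditions, and rest on the same FPKM.

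Other genes of the translation cycle were set beside the initiation factors, in lists chosen with earlier results of these data known. The 2-fold rule called 9.47% of all genes tested lower and 12.8% higher. After the GC correction it called 5.94% and 8.34%. The counts of each list below are to be read beside these shares. Of 8 termination and recycling factors, 5 were at least 2-fold below the median gene and 0 above, with a median of -1.11. HBS1L, a rescue factor of stalled ribosomes, was at 22.9 and 4.83 FPKM (-1.68), ABCE1, which splits ribosomes after termination, at 42.9 and 11.3 FPKM (-1.47) and ETF1, the release factor that reads stop codons, at 75.1 and 21.9 FPKM (-1.37). After the GC correction 2 of the 8 remained at least 2-fold lower. The list of elongation factors held 8 genes with EEF symbols, among them EEF2K and EEF1E1, which do not encode elongation factors themselves. Of these 8, 3 were at least 2-fold above the median gene and 1 below, with a median of 0.45. EEF1A2, the tissue-restricted form of the tRNA carrier, was at 31.0 and 125 FPKM (2.34), EEF2K, the inhibitory kinase of the translocase eEF2, at 3.44 and 6.68 FPKM (1.15), and EEF1E1, a protein of the tRNA synthetase complex, at 46.4 and 9.08 FPKM (-1.87). After the GC correction 1 of the 8, EEF1A2 (1.70), was at least 2-fold higher and 1, EEF1E1 (-1.19), at least 2-fold lower. EEF2K was then at 0.95, and the list median was 0.06. Without centring 1 of the 8 passed on the higher side and 1 on the lower, against 6.24% and 19% of all genes. The median was then 0.09.

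PABPC1, the poly(A)-binding protein that contacts eIF4G, was at 376 and 635 FPKM (1.11), whereas its partners PAIP1 (-0.97) and PAIP2 (-0.79) lay below the median gene. After the GC correction PABPC1 was at 0.88, under 2-fold. Of 12 helicases, regulators and kinases, 4 passed the 2-fold rule on the lower side and 0 on the higher, and the median was -0.01. Among all genes tested 9.47% passed on the lower side and 12.8% on the higher. The scanning helicase gene DHX29 was at 14.4 and 2.94 FPKM (-1.61), the helicase gene DDX3X at 113 and 35.5 FPKM (-1.28) and the ribosomal S6 kinase gene RPS6KB1 at 23.9 and 7.46 FPKM (-1.20). After the GC correction 2 of the 12 were lower and 2 higher, with DHX29 at -1.11, DDX3X at -0.72 and RPS6KB1 at -0.57. Of 6 mitochondrial translation factors 1 was at least 2-fold lower: the initiation factor gene MTIF2 was at 24.9 and 7.57 FPKM (-1.24), and at -0.85 after the GC correction, when 0 of the 6 passed. GFM1 (-0.63) and TSFM (-0.49), of mitochondrial elongation, followed. Of 10 genes of the eIF2 phosphatase and the stress response, 1 passed the 2-fold rule, on the lower side, and the median was 0.07 (2 on the lower side and -0.22 after the GC correction). That gene was ASNS, asparagine synthetase, at 98.5 and 33.2 FPKM (-1.18). ATF4, the transcription factor of this response, was at 225 and 153 FPKM (-0.20), a value named outside the rule for named genes. PPP1R15A, a phosphatase subunit that reverses eIF2 phosphorylation, was at 7.90 and 9.36 FPKM (0.58), and PPP1R15B at 17.9 and 11.0 FPKM (-0.29).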

How the data were processed

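For each library the authors deposited FPKM per gene, per the file headers. The submitters' processing notes list the build hg38 (GRCh38) and the tools Cufflinks 2.2.1, HISAT2 and CASAVA, with no role for each. The sources used here do not give the depth, filters, strand setting or annotation release. The deposited table of the authors' comparison holds log2 ratios (treated as a score, since ratios to 0 are written as extreme numbers), p-values and q-values for 2747 genes. Its 2 columns of per-library values were left aside, since their names match neither sample's labels. FPKM depend on the library total, so transcripts that take a larger share leave less for the rest. A gene absent from a file can be at 0 or lack an estimate and was left out of folds.

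Tables were joined by gene identifier. Folds used a pseudocount of 1 FPKM, which understates the change of low genes, and were centred on genes with a mean of at least 5 FPKM. Genes with a mean of at least 1 FPKM were counted by a 2-fold rule, with no test. Members may be named when they pass that mean, and each companion list names up to 3 genes with the largest absolute relative fold and a mean of at least 5 FPKM. Members and lists were chosen with earlier results of these data known. GC content, lengths and gene positions came from GENCODE 29 (GRCh38), matched for 55 of 55 members and 99.7% of tested genes, and GC and length are those of the longest transcript. The GC correction used a lowess fraction of 0.3 (statsmodels 0.14.6, pandas 2.3.3). The fold script was tested on simulated data. Start and promoter sequences came from RefSeq (GRCh38.p14), matched by symbol for 42 of 51 tested members. Where a gene has several entries, the motif search used its earliest entry in the table, and the printed start of EIF5 is likewise its earliest entry. The alternatives tried are given with the closing observations.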

Additional observations from a re-analysis of the deposited data

How the results depend on the processing

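EIF1AX, EIF2S1, EIF2S2, EIF4E, EIF5 and EIF5B were at least 2-fold lower under all 11 settings, the main one included. Several settings could hardly have changed this. The level filters, leaving out the EIF4EBP genes and summing rows of a symbol left the folds of these genes almost as they were. The FPKM as deposited and the TPM scaling, both without centring, placed the members lower, with medians of -0.66 and -0.42 against -0.30. EIF3J was not with a pseudocount of 5 (-0.999) or the GC correction. The number lower became 15 with the FPKM as deposited and 12 with TPM scaling without mitochondrially encoded transcripts and without centring. The share of all genes tested was 19% as deposited, against 9.47% under the main setting. It was not computed under the TPM scaling, so the 12 cannot be set against a background. The number higher became 0 as deposited and 3 with the GC correction, against 6.24% and 8.34% of all genes tested. The eIF5 group median was -0.92 with the GC correction, -0.62 with no filter and -0.85 with a pseudocount of 5. Of single members, EIF2AK1, EIF2AK2, EIF2AK4, EIF2B5, EIF3H, EIF3I, EIF3K, EIF4ENIF1, EIF4H and EIF5A2, none past 2-fold, changed sign under at least 1 setting (16 values in all). Some group medians near 0 did so too. The eIF1 group came to -0.31 as deposited and -0.0886 with TPM scaling and no centring. The eIF2 kinases came to 0.0200 with the GC correction and 0.0196 with a mean of at least 5 FPKM, and EIF2A with EIF2D to 0.13 with the GC correction. The eIF4E-binding proteins came to -0.18 as deposited, -0.0820 with the GC correction and -0.0886 with no filter. Adding readthrough rows to EIF4EBP3 set the share of EIF4EBP1 among the EIF4EBP genes at 87.3% in the vector library and 80.3% in the ATOH8 library, because EIF4EBP3 then passed the level filter. Other shares moved by at most 1 percentage point. The causes of the other changes were not tested. Requiring 6 pyrimidines after the C, chosen after the data were seen, gave medians of 0.38 with and -0.37 without a pyrimidine start. No paired analysis was possible because each group holds 1 library, and depth is unknown.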
